A study of Mus musculus with 16 samples.

Results

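The genes described here are 10 transcription factor genes known for their work in endothelial cells, the cells that line blood vessels: Klf2, Klf4, Fli1, Erg, Ets1, Sox7, Sox17, Sox18, Tal1 and Gata2. A peak of acetylated histone H3 lysine 27 (H3K27Ac) was counted for a gene when the deposited annotation gave that gene's symbol. By this rule 191 of the 53959 H3K27Ac peaks in 4 lists belonged to the 10 genes, out of 10927 genes with a peak in any list. The chromatin came from adult cardiomyocytes, isolated by enzymatic perfusion of the hearts of 3-month-old mice and collected directly afterwards. The mice were Des+/+, with intact desmin (an intermediate filament protein of muscle), or Des-/-, without desmin, and were either unstressed (basal) or had undergone swimming exercise (swim). The 4 groups were thus Des+/+ basal, Des-/- basal, Des+/+ swim and Des-/- swim, and each had 1 H3K27Ac library, made from chromatin pooled from several mice and called against its own input. Where 4 values are given without group names, they follow that order. No difference between libraries therefore has a replicate check, no test was made, and the intervals given are 95% intervals for counting error only.

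H3K27Ac is a histone mark of active promoters and enhancers. Klf2 and Klf4 encode zinc-finger factors that endothelial cells switch on under laminar blood flow and that keep the vessel wall quiescent. Fli1, Erg and Ets1 belong to the ETS family, which binds DNA around a GGAA core and maintains endothelial identity. Sox7, Sox17 and Sox18 form the SoxF group of vascular development, with Sox17 best known from arteries. Tal1 (a basic helix-loop-helix factor) and Gata2 (a zinc-finger factor that binds GATA sites) act in blood-forming cells as well as in endothelium. Several of the others also have uses outside vessels, such as Klf4 in epithelia and Ets1 in lymphocytes, so a peak at these genes is not proof of a cell type.

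The preparations were labelled as cardiomyocytes, and the lists carried both heart muscle and vessel genes. Of 20 cardiomyocyte genes, 19, 19, 18 and 13 had a peak. Of 25 endothelial receptor and junction genes, which include Pecam1, Kdr and Cdh5, 23, 23, 21 and 19 had a peak. Vwf and Plvap, also of that list, had none in any library. The tallest peaks of the cardiomyocyte genes summed to 603, 590, 502 and 308 reads and those of the receptor and junction genes to 837, 794, 540 and 590 reads. These sums run over unequal numbers of listed genes. The medians per listed gene were 28, 28, 25.5 and 22 reads for cardiomyocyte genes and 36, 37, 24 and 29 reads for receptor and junction genes. The tallest cardiomyocyte genes were Atp2a2, the calcium pump of the sarcoplasmic reticulum, at 66, 61, 57 and 56 reads, and Myh6, the alpha myosin heavy chain, at 46, 44, 37 and 22. The blood cell list had a peak at only 3, 4, 1 and 3 of 20 genes (Kit, Runx1, Itga2b and Cd14), and the pan-leukocyte gene Ptprc had none in any list. In smooth muscle and pericyte genes the count was 4, 4, 3 and 1 of 12, with none at Acta2, Pdgfrb or Cspg4. The tallest there was Notch3, with 37, 20 and 17 reads in the first 3 libraries and no listed peak in Des-/- swim. In fibroblast genes the count was 1, 5, 0 and 1 of 12, and the tallest was Tcf21, listed in Des-/- basal alone at 21 reads. Peak lists of whole preparations do not tell in which cells the mark lay, and fewer cells of a type and less mark per cell cannot be told apart. The Des-/- swim library stood apart in its input, whose mean height under the peaks was 5.48 reads against 2.80 to 3.06 reads in the other libraries. The peak at Des itself, the deleted gene, was 30, 46, 24 and 37 reads high, and a peak there does not check the genotype.

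**Figure D1:**
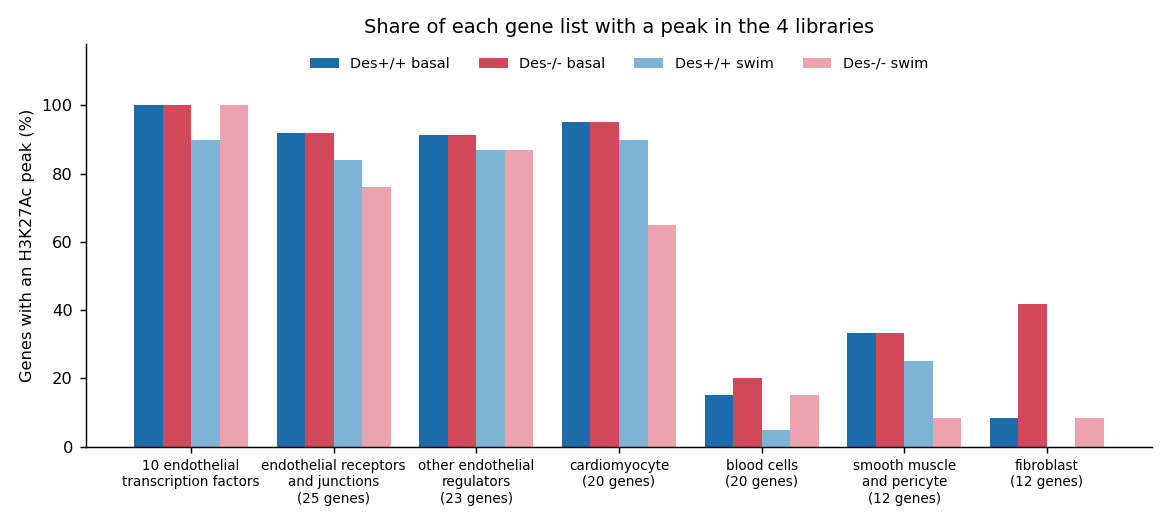
Percent of the genes of each list (horizontal axis) that had at least 1 H3K27Ac peak in each of the 4 libraries (bars, 1 library each, no error). The 10 endothelial transcription factors reached 90.0 to 100% and the endothelial receptors and junctions 76.0 to 92.0%, while blood cell, smooth muscle and fibroblast genes stayed between 0 and 41.7%.

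A set of 5 sequences is shown because these overlap, in part or in full, tall peaks at promoters or upstream. They come from the flow-induced Klf genes and from the single start of Erg that carried the mark. The RefSeq promoter table (GRCm38.p6; each window runs from 250 bases before a start to 50 after it) held 9 windows for 5 of the 10 genes, namely Klf2, Klf4, Erg, Tal1 and Gata2. The windows of Klf2 and Klf4 were chosen by rule, and the Erg window and the 2 distal windows after their values were seen. The distal windows are 300 bases of GRCm38.p6 centred on the highest point of the peak in Des-/- basal. Capitals mark matches on either strand to any of 6 motifs. Those of the ETS family were searched as CCGGAAG. Sites that GATA factors bind were searched as the letters AGATAA. The letters for Krüppel-like factors were CACCC, and those for SOX proteins were ACAAAG. The E-box that TAL1 binds was searched as CAGATG. The MEF2 consensus, added after the sequences were seen, was the last. All are written 5′ to 3′ on the strand named.
Klf2 promoter, chr8:72318812-72319111, plus strand: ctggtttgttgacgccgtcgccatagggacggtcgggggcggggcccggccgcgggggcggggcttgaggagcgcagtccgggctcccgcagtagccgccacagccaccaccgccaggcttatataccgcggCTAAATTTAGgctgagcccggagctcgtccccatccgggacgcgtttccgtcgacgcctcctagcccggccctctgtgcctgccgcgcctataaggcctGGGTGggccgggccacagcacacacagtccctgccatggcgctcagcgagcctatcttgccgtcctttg
Klf4 promoter, chr4:55532426-55532725, minus strand: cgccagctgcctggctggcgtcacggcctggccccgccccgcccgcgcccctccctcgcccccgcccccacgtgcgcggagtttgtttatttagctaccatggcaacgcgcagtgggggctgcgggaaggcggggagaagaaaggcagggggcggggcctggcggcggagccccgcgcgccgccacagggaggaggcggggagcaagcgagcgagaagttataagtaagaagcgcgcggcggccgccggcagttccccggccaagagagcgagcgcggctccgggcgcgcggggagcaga
Erg promoter, chr16:95459299-95459598, minus strand: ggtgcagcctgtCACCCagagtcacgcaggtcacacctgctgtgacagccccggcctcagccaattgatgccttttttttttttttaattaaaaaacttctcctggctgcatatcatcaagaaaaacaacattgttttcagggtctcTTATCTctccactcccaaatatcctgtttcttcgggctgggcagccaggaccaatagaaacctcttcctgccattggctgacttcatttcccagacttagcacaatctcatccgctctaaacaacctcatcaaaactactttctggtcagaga
Klf2 distal region, chr8:72296074-72296373, plus strand: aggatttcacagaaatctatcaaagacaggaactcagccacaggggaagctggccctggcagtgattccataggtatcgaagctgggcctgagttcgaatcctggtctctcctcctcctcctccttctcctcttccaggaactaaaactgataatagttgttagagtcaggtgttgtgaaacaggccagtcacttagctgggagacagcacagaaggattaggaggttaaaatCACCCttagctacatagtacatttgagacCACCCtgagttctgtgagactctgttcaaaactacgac
Klf4 distal region, chr4:55651721-55652020, plus strand: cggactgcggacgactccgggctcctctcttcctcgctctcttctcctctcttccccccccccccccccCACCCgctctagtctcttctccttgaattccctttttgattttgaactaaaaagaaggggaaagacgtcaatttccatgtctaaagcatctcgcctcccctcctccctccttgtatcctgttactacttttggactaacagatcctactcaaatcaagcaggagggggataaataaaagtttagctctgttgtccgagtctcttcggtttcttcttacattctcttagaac

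None of the matches in these 5 sequences overlapped another. The Klf2 promoter window held 1 KLF match and 1 MEF2 match, and the Klf4 promoter window held no match to any of the 6 motifs. The Erg window held 1 GATA and 1 KLF match, the distal Klf2 window 2 KLF matches and the distal Klf4 window 1. Among all 32851 promoter windows of the table, 57.5% held the KLF letters, 18.7% the SOX letters, 17.2% the E-box, 11.2% the GATA letters, 8.86% the ETS letters and 3.19% the MEF2 consensus. A KLF match is thus common in any window of this length. The G+C content was 69.3% and 74.3% in the Klf2 and Klf4 promoters but 46.0% in the Erg window, and 47.3% and 49.0% in the distal Klf2 and Klf4 windows.

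All 10 genes had a peak in every library but Des+/+ swim, where 9 did and Sox7 was not listed. Of all 10927 genes with a peak in any list, 9430, 9954, 7166 and 7053 had one. The genes together had 53, 51, 39 and 48 peaks, of 15757, 16638, 11157 and 10407 peaks in all. This came to 4.33 to 5.30 peaks per gene, against 1.47 to 1.67 per gene over all genes with a peak. The spread was uneven, from 34 peaks over the 4 lists at Ets1 to 3 at Sox7. Many peaks per gene were not particular to the 10 genes. The cardiomyocyte list had 82, 71, 60 and 30 peaks at 19, 19, 18 and 13 genes. A smaller share of the peaks of the 10 genes lay near a start: 39.2 to 50% were within 3 kb of one, against 71.2 to 77.3% of all peaks. The median over the genes of the tallest peak was 46, 42.5, 23 and 32.5 reads, against 28, 29, 23 and 27 reads over all genes with a peak. Input under the peaks of the 10 genes was low, with a mean of 2.60, 2.29, 2.59 and 4.19 reads. In the 4 lamin A/C lists of the same genotypes and conditions (188 to 831 peaks) none of the 10 genes had a peak. With so few peaks in all, few genes of any kind could have one. The paper reports low read counts for its lamin A/C data.

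**Figure D2:**
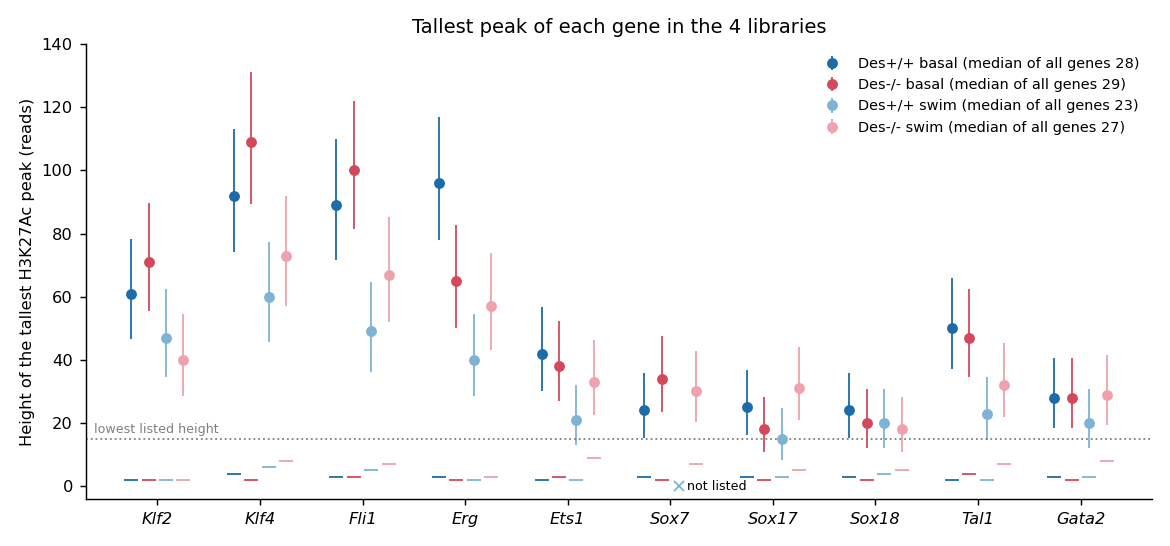
Height in reads (vertical axis) of the tallest H3K27Ac peak of each gene in the 4 libraries, with exact 95% Poisson intervals, and the input height under that peak as a dash. Klf4, Fli1, Erg and Klf2 stood highest, at 40 to 109 reads, Sox17 and Sox18 lay at 15 to 31 reads, and Sox7 was not listed in Des+/+ swim (cross, not a measured 0).

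The flow-induced Klf genes carried the mark both at their promoters and far upstream. At Klf4 the tallest peak was at the promoter (region chr4:55529039-55534700, GRCm38) and was 92, 109, 60 and 73 reads high. Input there was 4, 2, 6 and 8 reads. Both basal libraries were above both swim libraries, and the counting intervals of Des-/- basal (89.5 to 131) and Des+/+ swim (45.8 to 77.2) did not overlap. These heights are not scaled for depth. Over all genes, the median swim to basal ratio was 0.714 in Des+/+ and 0.737 in Des-/-. Relative to that median, Klf4 was at 0.913 (0.648 to 1.28) in Des+/+ and 0.909 (0.666 to 1.23) in Des-/-. In every list Klf4 was among the tallest genes, above 96.0 to 98.5% of genes with a peak. A distal region 119 kb upstream, chr4:55649960-55653210, was annotated as intergenic and overlapped no gene of the GENCODE annotation. It reached 67, 76, 55 and 47 reads, with the next coding start, that of Rad23b, 302 kb from its middle. The same region was therefore high in all 4 libraries and in the same order as at Klf2, described next. The other Klf4 regions were 15 to 19 reads high and reached as far as 581 kb upstream.

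At Klf2 the tallest peak was not at the promoter but 23.1 kb upstream, in the intergenic region chr8:72294468-72297422. It was 61, 71, 47 and 40 reads high, over an input of 2 reads in each. The counting intervals of Des-/- basal (55.5 to 89.6) and Des-/- swim (28.6 to 54.5) did not overlap, while the others did. Relative to the median of all genes, swim against basal in Des-/- was 0.765, with an interval (0.506 to 1.14) that includes 1. The region overlapped no gene in GENCODE, whose nearest other coding start, that of Gm10282, was 9.32 kb from its middle, so the assignment to Klf2 is that of the deposited annotation. A second region, chr8:72302286-72304075, had 24, 35, 30 and 28 reads and lay 2.08 kb from the Gm10282 start against 15.9 kb from that of Klf2. In GENCODE, a coding start of Gm10282 or Gm29797 was nearer than that of the named gene for 7 of the 60 merged regions of the 10 genes, 4 at Klf2 and 3 at Sox18. At the promoter, a peak on each side of the start was listed in all 4 libraries. The upstream one had 54, 47, 35 and 36 reads, and the one over the gene body 43, 52, 44 and 39 reads, the last over an input of 12 reads. The gene ranked above 79.2 to 92.1% of genes with a peak.

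Of the ETS genes, Fli1 and Erg had tall peaks and Ets1 lower ones. Fli1 had its tallest peak at the promoter, chr9:32538209-32544001, with 89, 100, 49 and 67 reads. Des+/+ swim was the lowest library, and its interval (36.3 to 64.8) lay below those of both basal libraries (71.5 to 110 and 81.4 to 122). These heights are not scaled for depth. Relative to the median of all genes, swim against basal in Des+/+ was 0.771, with an interval (0.532 to 1.10) that includes 1. A further 5 regions between 11 and 32.7 kb into the gene were listed in 3 or 4 libraries at 15 to 27 reads.

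Erg had the mark at an internal start only. The region chr16:95454242-95461125 lay 129 kb from the outermost start of the gene in GENCODE and was 96, 65, 40 and 57 reads high, over an input of 2 or 3 reads. Des+/+ basal was the tallest library, with an interval (77.8 to 117) above those of Des+/+ swim (28.6 to 54.5) and Des-/- swim (43.2 to 73.9). These heights are not scaled for depth. Relative to the median of all genes, swim against basal in Des+/+ was 0.583 (0.393 to 0.852). Of the 3 Erg windows in the promoter table, this start, printed above, had a peak in all 4 lists and the other 2 had one in none. Within the same gene, 3 further regions 8.97 to 20 kb downstream of that start were listed in every library, at 17 to 28 reads. In each of the 4 the lowest value was that of Des+/+ swim, in one case tied with Des-/- basal.

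**Figure D3:**
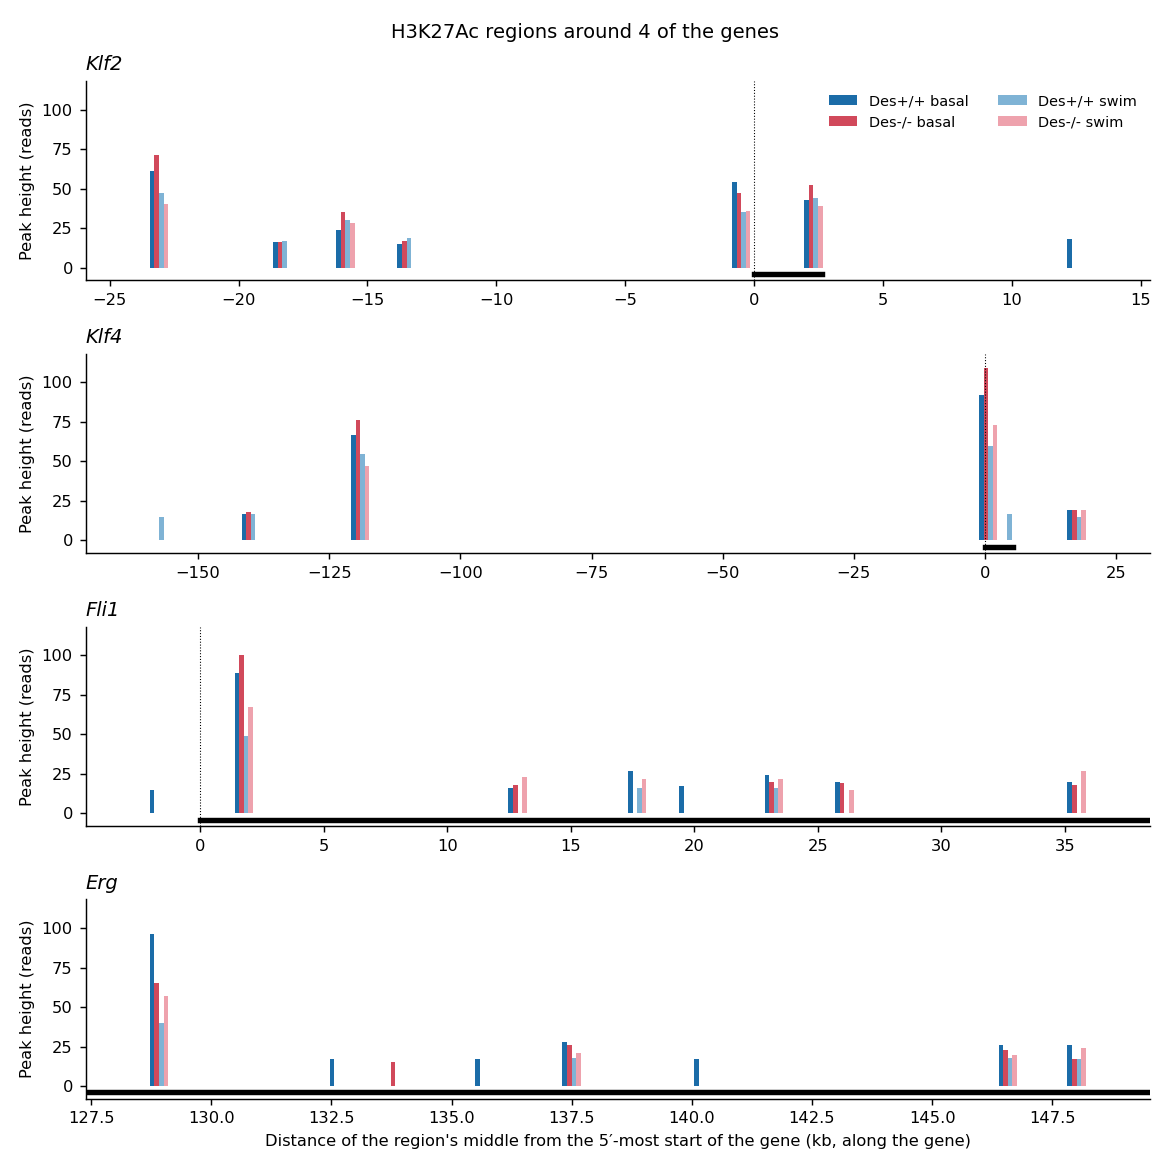
Height in reads of the H3K27Ac regions (merged over the 4 lists) around Klf2, Klf4, Fli1 and Erg, by the distance in kb of the region's middle from the outermost start of the gene (dotted line at 0; off the axis for Erg), with the gene as a black bar and 1 coloured bar per library. A missing bar means that no peak was listed there, and the Klf4 region 581 kb upstream is left out. Klf2 and Klf4 carried tall regions upstream of the gene, Fli1 at its start, and Erg 129 kb inside the gene.

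Ets1, which lies next to Fli1 on chromosome 9, spread its signal over 14 regions, of which 3 were in all 4 lists. Its tallest region in 3 libraries, chr9:32695131-32698211, was annotated as a promoter and lay 60.4 kb inside the gene. It had 42, 38, 16 and 33 reads, with 9 reads of input in the last library. At the outermost start a peak was listed in Des+/+ basal alone, at 15 reads. In Des+/+ swim the tallest peak was instead an intergenic one 41 kb upstream (chr9:32594250-32596266), where the 4 libraries had 27, 29, 21 and 21 reads. The tallest Ets1 peak stood above 38.3 to 75.0% of genes.

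The SoxF genes had low peaks, of at most 34 reads. Sox7 had 1 region, at its promoter (chr14:63942597-63945610), with 24 reads in Des+/+ and 34 in Des-/- hearts before exercise, and 30 in Des-/- hearts after it, but none listed in Des+/+ swim. Of the 307 genes whose tallest peak was also 24 reads in Des+/+ basal, 32.9% had none in Des+/+ swim, so this loss was common at that height. Sox17 had its tallest peak within the gene in 3 libraries (chr1:4491650-4493906, annotated as promoter), at 22, 18, 15 and 31 reads, where Des-/- swim was the highest. Input there was 3, 2, 3 and 5 reads. A second Sox17 region over its outermost start (chr1:4496407-4498054) had 25 and 15 reads in the Des+/+ and Des-/- basal libraries and 21 in Des-/- swim. Sox18 reached 24, 20, 20 and 17 reads at chr2:181659824-181661279, an intergenic region whose middle was 3.52 kb from the coding start of Gm29797 against 11.1 kb from that of Sox18, and at its promoter 16 reads in both basal libraries and 18 in Des-/- swim. With heights this close to the listing minimum of 15 reads, all Sox18 intervals overlapped.

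Tal1 and Gata2, the genes shared with blood-forming cells, had their tallest peaks near starts. Tal1 had 50, 47, 23 and 32 reads over chr4:115056022-115060509, a region that spans both Tal1 windows of the promoter table. Its Des+/+ swim interval (14.6 to 34.5) ended below that of Des+/+ basal (37.1 to 65.9), in heights not scaled for depth. Relative to the median of all genes the ratio was 0.644, with an interval (0.375 to 1.08) that includes 1. A region at -2.78 kb from the Tal1 start had 36, 33, 23 and 19 reads. Gata2 had 28, 28, 20 and 29 reads at chr6:88196514-88198118, 3.42 kb inside the gene, with an input of 8 reads in Des-/- swim. The outermost Gata2 window had no peak in any list.

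Merged across the lists, the peaks formed 60 regions, of which 22 (36.7%) were in all 4 lists, close to the 37.7% of all 18277 merged regions. Another 23 were in 1 list alone, all at 15 to 18 reads, which is 38.3% of the regions against 28.2% of all merged regions. The 4 libraries held 11, 5, 2 and 5 of these (47.8, 21.7, 8.70 and 21.7%), against 34.6, 49.5, 8.96 and 6.96% over all regions in 1 list. Ets1 had 7 of the 23. In Des+/+ basal these were a region 0.475 kb past its outermost start (15 reads) and one 2.24 kb past its internal start (18 reads). In Des-/- basal they lay at -43.7 kb (16 reads) and -19.1 kb (15 reads) from the nearest start, negative being upstream, and at 2 places 20 kb downstream of one (17 and 15 reads), and in Des-/- swim 19.3 kb downstream (16 reads). Erg had 4, near its internal start, at 5.05, 7.93 and 12.2 kb in Des+/+ basal (17 reads each) and at 6.29 kb in Des-/- basal (15 reads). Both those of Fli1 were in Des+/+ basal, at -1.42 kb from the start (15 reads) and 18.2 kb into the gene (17 reads). At the Klf genes, Klf2 had 1 lying 12.2 kb downstream in Des+/+ basal (18 reads), and Klf4 had 2 in Des+/+ swim, 157 kb upstream (15 reads) and 3.37 kb downstream of its start (17 reads). Sox17 had 1 at a start in Des+/+ basal (15 reads). Sox18 had 1 in Des+/+ basal 8.66 kb downstream (15 reads) and 2 in Des-/- swim, 7.51 kb downstream (15 reads) and at -2.54 kb (16 reads). Gata2 had 1 in Des+/+ basal 0.366 kb from a start and 2 in Des-/- swim, at a start and at -1.55 kb from one, each 17 reads high. All of these lay within 3 reads of the listing minimum.

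Of 13 regions in 3 lists, 8 were missing in Des+/+ swim: 3 in Fli1, 1 in Ets1, 1 in Gata2 and the regions over the outermost starts of Sox7, Sox17 and Sox18. That is 61.5% of them, against 40.2% of all regions in 3 lists. Another 4 were missing in Des-/- swim, 2 at Klf2, 1 at Klf4 and 1 at Ets1, which is 30.8% against a background of 54.2%. The last, in Fli1, was missing in Des-/- basal (background 2.06%), and none was missing in Des+/+ basal (background 3.51%). The regions absent from Des+/+ swim thus lay at ETS, SoxF and Gata2 genes, and those absent from Des-/- swim mostly at Klf genes, a difference that was not tested. Where listed, the former were 15 to 34 reads high and the latter 15 to 21, against a listing minimum of 15 reads.

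Libraries were compared by the log2 ratio of the tallest peak, minus the median of the same ratio over all genes with a peak in both lists. A gene was called higher or lower when it was at least 1.5-fold from that median, a description and not a test. The tallest peaks compared could lie in different regions of a gene. This was so in comparisons that use Ets1 in Des+/+ swim, Sox17 in Des+/+ basal or Sox18 in Des-/- swim. The question of the first comparison was whether loss of desmin goes with a different mark at these genes in unstressed hearts. The median ratio of the 10 genes, Des-/- against Des+/+ basal, was -0.15 (log2, relative to all 8773 genes), with single genes between -0.66 and 0.40. Only Erg was called, at 65 against 96 reads. Its relative ratio was 0.631 (95% conditional binomial interval 0.453 to 0.874), lower than in 98.2% of genes. None was called higher. Over all genes 3.03% were called higher and 3.02% lower. All 10 genes had a peak in both lists, while 11.1% of genes had one only in Des-/- and 6.19% only in Des+/+. The 3 Erg regions downstream had relative ratios of 0.610, 0.825 and 0.866 with intervals that include 1. The cardiomyocyte list had a median of -0.16 here, with 13 of 19 genes below the median of all genes and 2 called lower.

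After swimming, 7 of 9 genes with a peak in both lists lay above the median of all genes in Des-/- against Des+/+. Their median was 0.31 (log2) and they ranged from -0.40 at Klf2 to 0.88 at Sox17. Sox17 alone was called, higher, at 31 against 15 reads, a relative ratio of 1.85 whose interval (0.967 to 3.68) includes 1. The background was 3.34% called higher and 4.17% lower. Sox7 was listed in Des-/- only, as were 13.8% of genes, and no gene of the 10 in Des+/+ only, as were 15.2%. Summed over the 9 genes, the tallest peaks had 380 reads in Des-/- and 295 in Des+/+, which relative to all genes is 1.15-fold (0.985 to 1.34). In the same comparison 0 of 13 cardiomyocyte genes lay above the median of all genes, with a list median of -0.52, and Myh6 had 22 against 37 reads. The endothelial receptor and junction genes had a median of 0.05 and the other endothelial regulators one of -0.08. Input was also higher in Des-/- swim, as given above. The part of either in the result was not tested.

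Swimming in Des+/+ mice went with lower peaks, at a median of -0.49 (log2) over 6844 genes, which cannot be told apart from lower sequencing depth, and the endothelial transcription factors lay mostly below that. Relative to all genes their median was -0.25, between -0.78 and 0.22. Erg was called lower, with 40 reads after swimming against 96 before and a relative ratio of 0.583 (0.393 to 0.852). Tal1 was called lower too, with 23 against 50 reads, but its relative ratio of 0.644 has an interval (0.375 to 1.08) that includes 1. At the Ets1 region inside the gene, 16 against 42 reads gave 0.533 (0.280 to 0.969). None of the 10 was called higher, against 4.22% of all genes, and 2 of 9 were called lower, against 3.08%. Sox7 was lost, as were 26.5% of genes, while 3.30% of genes were listed only after swimming. The summed tallest peaks gave a relative ratio of 0.815 (0.703 to 0.942). The cardiomyocyte list went the other way in these libraries, with 14 of 18 genes above the median of all genes and a list median of 0.29.

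In Des-/- mice, swimming against basal, all genes had a median of -0.44 (log2, 6739 genes) and the 10 genes a relative median of 0.24. Sox17 was called higher, at 31 against 18 reads, with a relative ratio of 2.34 (1.27 to 4.44). Input under these peaks was 5 against 2 reads. Fold over input, with 1 read added to each and not set against all genes, was 5.33 against 6.33. At the second Sox17 region, 21 against 15 reads gave 1.90 (0.934 to 3.96). Klf2 was the lowest at -0.39, with 40 against 71 reads. None was called lower. The background was 4.39% called higher and 2.97% lower, and 3.06% of genes were listed only after swimming and 31.3% only before, against 0 of the 10 in both cases. Erg, which was called lower in both comparisons with Des+/+ basal, had 57 against 65 reads here, a relative ratio of 1.19 (0.819 to 1.73). The cardiomyocyte list had a median of -0.14, with 8 of 13 genes below the median of all genes, and another 6 of its genes were listed only before swimming. These 4 comparisons share libraries, so a single low or high library moves a pair of them.

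**Figure D4:**
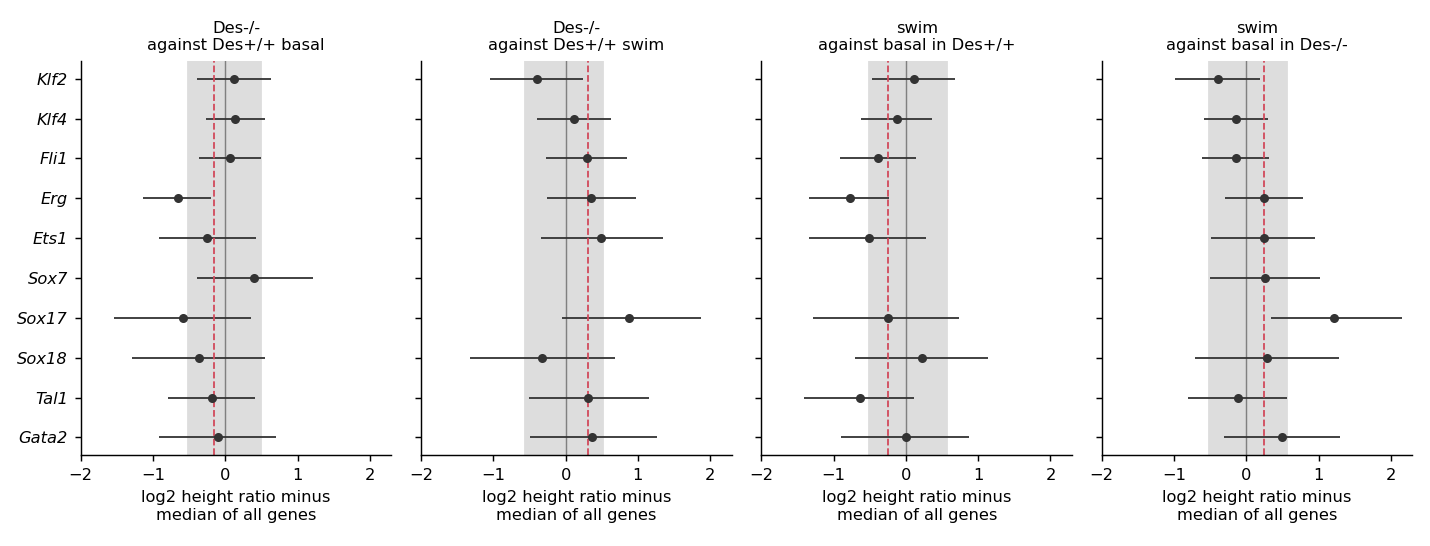
Log2 ratio of the tallest peak minus the median of all genes (horizontal axis) for each gene in the 4 comparisons, with 95% intervals for counting error, the 5th to 95th percentile of all genes in grey and the median of the 10 genes as a dashed line. Most genes lay inside the grey band. Erg lay below it in Des-/- against Des+/+ basal and in swim against basal in Des+/+, as did Sox17 in the former and Tal1 in the latter, and Sox17 lay above it in both comparisons with Des-/- swim.

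Most genes of the 2 other endothelial lists also carried the mark. Of 23 other endothelial regulators, 21, 21, 20 and 20 had a peak. Over all 10927 genes with a peak in any list, 9430, 9954, 7166 and 7053 had one. The list was not limited to genes used in vessels alone, so a peak at these regulators is not proof of a cell type. The tallest were Klf6 (115, 130, 107 and 86 reads), the ETS gene Etv6 (108, 124, 62 and 62) and the ETS gene Ets2 (86, 89, 56 and 65). Among the receptor and junction genes, the tallest were Egfl7, which encodes a secreted vessel factor, at 83, 64, 51 and 46 reads, the adhesion gene Esam at 58, 49, 40 and 54, and Pecam1 at 43, 56, 26 and 40. In swim against basal in Des+/+ these 2 lists had relative medians of -0.06 and -0.05 with 1 of 20 called lower and 1 of 21 called higher, and in Des-/- 0.01 and 0.13. In Des-/- against Des+/+ basal both lists lay slightly below the median of all genes, at -0.14 and -0.18. Cdh5, the endothelial cadherin, had 20 and 19 reads in the basal lists and was not listed in either swim library. These heights were near the listing minimum of 15 reads. Over all genes, 26.5% in Des+/+ and 31.3% in Des-/- were listed only before swimming. Of the 25 receptor and junction genes, 21 had a peak in Des+/+ swim and 19 in Des-/- swim.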

How the data were processed

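H3K27Ac and lamin A/C were precipitated from adult cardiomyocytes with 1 library per genotype and condition, and 16 samples include 8 inputs. The authors aligned reads to GRCm38 (mm10) with Bowtie2 2.4.4, used SAMtools 1.13, called peaks per library against its input with scripts of their own, and annotated them with ChIPseeker 1.36.0. Duplicate removal and input scaling are not given in the sources used here. The deposited peak height and input height are a coverage signal in whole reads, not normalized for depth. The deposited false discovery rate is a q-value, and was below 0.001 with heights of at least 15 reads, so an absent peak is one not listed, not a 0. The deposited distance to the nearest start is a score column in bp. Per the methods, reads per sample were stated only as 1 rounded figure shared by every sample, and the exact depth of each library is not given in the sources used here.

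The tallest peak of each gene was compared between libraries as described in the report, with Python 3.11.15, pandas 2.3.3 and scipy 1.17.1. Regions merged peaks that overlap by 1 bp or more. Height intervals are exact Poisson and ratio intervals conditional binomial, both assuming independent reads. The calculations were tested on simulated data. All 10 genes are named with their values. Of each other list, at most the 3 genes with the tallest peaks were named, and the remaining marker genes named were chosen after their values were seen. The genes, lists and comparisons were chosen with earlier results of these data known.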

Additional observations from a re-analysis of the deposited data

Results flagged for a closer look

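The genotype ratio (Des-/- against Des+/+, log2 of the tallest peak relative to all genes) changed sign between basal and swim libraries for the median of the 10 genes, by 0.46 from -0.15 to 0.31. The same held for Erg (by 1.01, from -0.66 to 0.35), Sox17 (by 1.46, from -0.58 to 0.88), Ets1 (by 0.74), Tal1 (by 0.50) and Gata2 (by 0.47), all higher after swimming, and for Klf2 (by -0.52, from 0.12 to -0.40). The swim ratio likewise changed sign between genotypes for the median (by 0.49, from -0.25 in Des+/+ to 0.24 in Des-/-), Erg (by 1.03), Ets1 (by 0.75), Sox17 (by 1.47) and Klf2 (by -0.50). The sign changes of the medians depended on the processing. The basal genotype median was 0.04 with fold over input and 0.01 scaled by cardiomyocyte genes, so it did not change sign there. The swim median was negative in both genotypes without scaling (-0.74 and -0.20). With 1 library per group none of these differences was tested, and each pair uses the same 4 heights, so the 2 sets are not separate evidence.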

How the results depend on the processing

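Counts of peaks depended on the cut-off. With a minimum height of 20 reads the genes had 30, 20, 18 and 26 peaks in Des+/+ basal, Des-/- basal, Des+/+ swim and Des-/- swim, and within 3 kb of a start 23, 20, 18 and 24. The median relative ratio for Des-/- against Des+/+ basal moved from -0.15 to 0.04 with fold over input in place of height. For the swim libraries it moved from 0.31 to 0.63 with fold over input and to 0.83 when scaled by cardiomyocyte genes. For swim against basal in Des+/+ it moved from -0.25 to -0.58 with summed heights, -0.74 without scaling and -0.54 scaled by cardiomyocyte genes. For swim against basal in Des-/- it moved from 0.24 to 0.53 with summed heights and reversed to -0.20 without scaling, which leaves in the lower heights of all genes. The other alternatives kept the value within the counting error, among them scaling by genes of like height (-0.17, 0.29, -0.32 and 0.21, chosen after seeing the data). Within that error, comparing peaks of a common region took swim against basal in Des+/+ from -0.25 to -0.13. A minimum height of 20 reads took swim against basal in Des-/- from 0.24 to 0.07. The cause of the moves was not tested. No paired analysis was possible because each group has 1 library. Heights near 15 reads have intervals of 8.40 to 24.7 reads, so small differences at the SoxF genes were not detectable.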
